A study of Caenorhabditis elegans with 16 samples.

Results

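Heat-shocked worms that lack both ADAR enzymes were compared with heat-shocked wild-type worms across all genes. The comparison used 8 of the 16 libraries of the study, chosen by strain and treatment: 3 of BB4 and 2 of BB21 as the ADAR mutants, against 3 of N2, the wild-type laboratory strain of Caenorhabditis elegans. BB4 carries the allele gv6 of adr-1 and gv42 of adr-2, and BB21 carries tm668 of adr-1 and ok735 of adr-2, so both are double mutants, with different alleles. Worms of every group were grown at 20 °C on OP50 bacteria and treated at the L4 larval stage. They spent 75 min at 34 °C, recovered for 20 min at room temperature and then for 3 h at 20 °C. The other 8 libraries came from the same strains kept at 20 °C throughout and are used below only for the dependence on heat. Each library was made from the polyadenylated RNA of a pool of whole worms, so fewer cells of a type and less RNA per cell cannot be told apart.

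ADARs bind double-stranded RNA and convert adenosine to inosine. In C. elegans ADR-2 is the active deaminase, and ADR-1 binds the RNA and modulates the editing by ADR-2. Loss of editing leaves long double-stranded RNA open to the RNA interference machinery, which is why non-coding RNAs, pseudogenes and RNA interference factors were looked at beside the heat-shock genes. The question was which transcripts differ in level between worms with and without ADARs once both have been through the same heat stress.

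The heat-shocked libraries fell apart by library set more than by strain. Titles that end in 12_7 mark BB4 replicate 2, BB21 replicate 1 and N2 replicate 1, and titles that end in 28_6 mark BB4 replicate 1 and N2 replicate 2. The remaining 3 libraries (BB4 replicate 3, BB21 replicate 2 and N2 replicate 3), each with an ending of its own, were joined as the deep set. The labels do not say what the endings stand for. The deep set had 30503458 to 30925561 reads per library, while sets 12_7 and 28_6 were shallow, with 4699505 to 8963440 reads. The first principal component of the log2 values carried 69.1% of the variance and separated the 3 deep libraries (147.8 to 182.3) from the 5 shallow ones (-194.9 to -22.2). N2 replicate 1, the shallowest library, lay apart from the rest on the second component as well (121.9, 11.7% of the variance). Several list counts, and named genes that its absence moved by over 1.5 times, are therefore given with and without it. Where a list has no second count, its dependence on this library is not shown. The values are read counts divided by a size factor (normalized counts), every test carries the library set as a block, and every log2 fold change is the ADAR mutants minus N2 on log2(normalized count + 1), which understates the change of genes with few reads.

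Both targeted genes were low in the mutants, which checks the labels. The adr-1 transcript H15N14.1c had normalized counts of 418, 597 and 751 in BB4 and 564 and 1068 in BB21, against 1335, 1519 and 2619 in N2 (replicates 1 to 3, or 1 and 2). All 5 mutant libraries lay below all 3 N2 libraries. Its log2 fold change was -1.51 ± 0.20 (SE, adjusted p = 0.224, limma). Of the 5 annotated adr-1 transcripts, 4 lay between -1.53 and -1.50 and the fifth, H15N14.1g, which had few reads, at -0.40. The adr-2 transcript had 251, 247 and 533 in BB4 and 162 and 155 in BB21, against 732, 982 and 1060.3 in N2, again with every mutant library below every N2 library (-1.90 ± 0.38, adjusted p = 0.372). The deletions do not remove all reads of either gene, and BB4 replicate 3 held 533 of adr-2, more than the other 4 mutant libraries.

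Across the genome no feature passed the test. Of 24896 annotated features with a mean of at least 1 normalized count, limma called 0 (0%) at an adjusted p under 0.05, and the lowest adjusted p was 0.125, for col-135. At an unadjusted p under 0.05 there were 2530 features, 1516 higher and 1014 lower in the ADAR mutants. Count models run on the reads recovered from the normalized counts called 1 feature in edgeR, which was col-135, and 252 in DESeq2, 163 higher and 89 lower. With 1 feature per gene, 5.73% of 20385 genes were higher and 4.68% lower at an unadjusted p under 0.05, and in DESeq2 0.672% were higher and 0.412% lower at an adjusted p under 0.05. Every mutant library lay above the N2 library of its own set for 7.7% of the genes and below it for 10.1%. These shares are the background for the counts that follow, and "higher" and "lower" below refer to the unadjusted limma p unless another test is named.

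Of the 15 genes named by rank as higher in the mutants, 5 (mlt-11, lpr-5, dpy-3, dpy-7 and col-128) belong to molting, the cuticle or the apical extracellular matrix. mlt-11 encodes a Kunitz-domain protein needed for molting. Its normalized counts were 84.1, 87.4 and 949 in BB4 and 78.5 and 1560.0 in BB21, against 6.34, 6.41 and 309 in N2. Each mutant library lay above the N2 library of its set, by a wider margin in the shallow sets than among the deep libraries, which held more mlt-11 in both groups (log2 fold change 2.96 ± 0.38, adjusted p = 0.224). lpr-5, a lipocalin-related protein of the apical matrix, had 70.8, 23.4 and 230.3 in BB4 and 55.5 and 298 in BB21, against 6.34, 5.13 and 54.2 in N2 (2.64 ± 0.43, adjusted p = 0.298). The furrow collagen gene dpy-3 had 98.9, 78.9 and 204 in BB4 and 118 and 217 in BB21, against 31.7, 10.3 and 51.8 in N2. Here the groups did not overlap, since the lowest mutant library was above the highest N2 library (2.16 ± 0.36, adjusted p = 0.298). A second furrow collagen gene, dpy-7, had 218, 59.7 and 388 in BB4 and 187 and 398 in BB21, against 12.7, 28.2 and 118 in N2 (2.50 ± 0.44, adjusted p = 0.298). Its shallow BB4 replicate 2 was below the deep N2 replicate 3, so the difference shows within the sets but not across them. The collagen gene col-128 was at 2.42, and F49E10.2, H42K12.3, E01G4.6, C23H3.9, C14F11.6 and F45B8.3, for which no role is given here, lay between 1.47 and 3.36.

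Among the remaining higher genes was a group of neighbours. ZK1025.3 had 363, 128 and 495 in BB4 and 195 and 875 in BB21, against 31.7, 30.8 and 153 in N2 (2.55 ± 0.35, adjusted p = 0.224). Each mutant library lay above the N2 library of its set, though BB4 replicate 2 was below the deep N2 library. In the order of genes of the RefSeq annotation of WBcel235, ZK1025.3 stands beside bah-1 (ZK1025.7, log2 fold change 3.10), a gene required for the attachment of bacterial biofilm to the head, and near ZK1025.2 (2.47), ZK1025.4 (2.04) and the pseudogene ZK1025.5 (2.60). ZK1025.2 and ZK1025.8 had identical values in every library, so their reads cannot be told apart. The 3 nuclear hormone receptor genes that lie between or beside them were not at an unadjusted p under 0.05 in the fit of all sets, but their differences varied by set. Among the deep libraries they were 1.90 to 2.06, within the 1.63 to 2.19 of the other 6 genes, while they were -2.02 to -0.60 in set 12_7 and -2.37 to 0.18 in set 28_6. ZK1025.4 and ZK1025.5 were named after their values were seen.

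F07B7.2 differed from the other higher genes in that its level hardly depended on the library set. It had 404, 367 and 369 in BB4 and 459 and 282 in BB21, against 168, 201 and 113 in N2, with every mutant library above every N2 library (1.29 ± 0.23, adjusted p = 0.298), and the same strain difference at 20 °C (1.37 ± 0.18). W09B7.2 had the same values, and the reads of this pair cannot be told apart. The N2 worms showed the mirror pattern for D2005.1, which had 196, 269 and 244 in BB4 and 248 and 249.5 in BB21, against 589.7, 684 and 467 in N2. The 5 mutant libraries spanned 196 to 269 and all lay below the lowest N2 library (-1.26 ± 0.22, adjusted p = 0.305), and at 20 °C the difference was -1.61 ± 0.19.

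**Figure D1:**
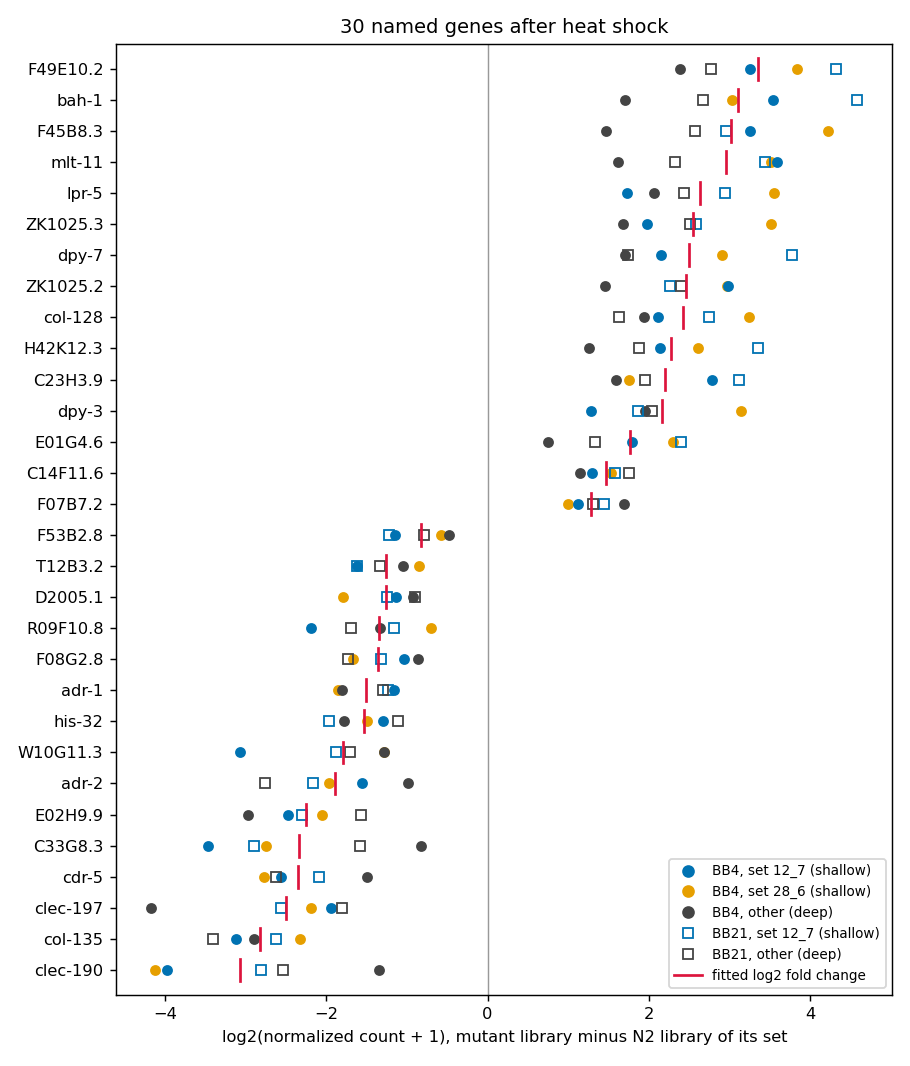
Log2 difference between each mutant library and the N2 library of its own set (x axis) for the 30 genes named by a fixed rule (y axis), with filled circles for BB4, open squares for BB21, colours for the library sets and a red bar for the fitted log2 fold change. All points of a gene lie on one side of 0 because the rule required it. The spread between sets is what the plot adds, for example for mlt-11, where the deep libraries lie nearest to 0.

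The lowest p of all features belonged to a gene that was lower in the mutants. The cuticle collagen gene col-135 had 174, 158 and 38.6 in BB4 and 225 and 26.8 in BB21, against 1386, 879 and 294 in N2. No mutant library reached the lowest N2 library, and within each set N2 held several times more (-2.82 ± 0.27, adjusted p = 0.125 in limma, adjusted p = 0.0473 in edgeR and adjusted p = 1.1e-18 in DESeq2). In the order of protein-coding genes col-135 is close to clec-190, a C-type lectin gene of the class associated with innate immunity, which had 4.43, 8.53 and 5.09 in BB4 and 20.3 and 1.68 in BB21, against 149, 93.6 and 14.5 in N2 (-3.07 ± 0.56, adjusted p = 0.341). M199.9, which stands between them and was named after its values were seen, was at -2.24 from a mean of 1.26 in the mutants, against 11.4 in N2, and at -1.20 without N2 replicate 1. Of the genes around them clec-188, annotated as a pseudogene (-1.49 ± 0.46), and srt-44 (-1.08 ± 0.43), both with few reads, were lower as well. On the other side of col-135, Y40H7A.4 (-2.17) and srd-23 (-1.23) were lower too, at -0.18 and -0.36 among the deep libraries. These 4 genes were named after their values were seen. The remaining neighbours looked at were not at an unadjusted p under 0.05.

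cdr-5, a member of a family induced by cadmium, had 33.9, 168 and 50.9 in BB4 and 234 and 22.6 in BB21, against 999, 237 and 145 in N2. The N2 library was the highest of each set (-2.35 ± 0.34, adjusted p = 0.224), and, unlike for col-135, no strain difference was measured at 20 °C (0.08 ± 0.28). The C-type lectin gene clec-197 had 3.82 to 29.8 in the 5 mutant libraries, against 37.2 to 117 in N2, with no mutant library reaching the lowest N2 library (-2.50 ± 0.57, adjusted p = 0.372). The histone gene his-32 (-1.53 ± 0.31, adjusted p = 0.372) and E02H9.9 (-2.25), C33G8.3 (-2.34), W10G11.3 (-1.79), R09F10.8 (-1.35), F08G2.8 (-1.36), T12B3.2 (-1.25) and F53B2.8 (-0.82) complete the lower genes. E02H9.9 had no overlap between the groups, while the others overlapped across sets.

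A further pair of examples came from the lists rather than from the ranking. fipr-20, a fungus-induced-protein-related gene of the antimicrobial peptides, had 2.95, 2.13 and 0.424 in BB4 and 4.06 and 2.10 in BB21, against 47.6, 20.5 and 8.28 in N2 (-2.76 ± 0.50, adjusted p = 0.337), and its neighbours fipr-18 (-2.68, adjusted p = 0.342) and fipr-19 (-2.12, adjusted p = 0.372) were lower too. The genes on either side of fipr-20, at -0.07 and 0.17, were not at an unadjusted p under 0.05. rncs-1, a non-coding RNA with a long double-stranded stem that binds Dicer, had 1071, 53.3 and 19.1 in BB4 and 347 and 19.3 in BB21, against 6402, 3073 and 111 in N2 (-3.33 ± 0.80, adjusted p = 0.372). N2 was the highest library of each set by -5.54, -1.52 and -2.47 on the log2 scale as mutants minus N2 in sets 12_7, 28_6 and the deep libraries, and the fitted difference was -2.06 without N2 replicate 1. The shallow libraries held more rncs-1 than the deep ones in both groups, with 53.3 the lowest shallow mutant value. At 20 °C its difference was -2.41 ± 0.67.

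The lists of cuticle, molting, and abu and pqn genes held many higher genes. The cuticle of C. elegans is made mostly of collagens secreted by the epidermis, and the collagen, molting and hedgehog-related genes are transcribed in waves within each larval stage. Of 179 cuticle collagen genes tested, 75 were higher and 15 lower, with a median log2 fold change of 0.71, beside -0.05 over all genes. Every mutant library was above the N2 library of its set for 55 of them and below it for 19. Of 141 molting and hedgehog-related genes, 53 were higher and 2 lower (median 0.73), and 47 had every mutant library above its N2 library. Of 81 abu and pqn genes, which encode glutamine- and asparagine-rich proteins of which several line the pharyngeal cuticle, 31 were higher and 0 lower (median 0.50). Only 10 of these (12.3%) had every mutant library above the N2 library of its set, against 7.7% of all genes, and 1 had every one below. DESeq2 called 24 collagen genes, 18 molting genes and 3 abu and pqn genes higher, and 3, 1 and 0 lower. The excess was not particular to heat-shocked worms. At 20 °C, in the fit of all 16 libraries, 98 collagen genes were higher and 1 lower (median 0.81). There 36 molting genes were higher and 0 lower (0.39), and 22 abu and pqn genes higher and 0 lower (0.24). Of all genes 7.93% were higher and 4.62% lower at 20 °C. Lists such as these hold similar sequences, and how reads shared between paralogs were counted was not tested.

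The genes behind these counts include well-known components of the body wall cuticle. sqt-1, a collagen gene whose mutations change body shape, had 2773, 2456 and 2782 in BB4 and 3184 and 3692 in BB21, against 342, 339 and 1888 in N2, and every mutant library was above every N2 library (2.20 ± 0.42, adjusted p = 0.367). bli-1, a collagen of the struts of the adult cuticle, had 131, 57.6 and 778 in BB4 and 161 and 1193 in BB21, against 3.17, 15.4 and 327 in N2. Its excess over N2 was large in the shallow sets and smaller among the deep libraries (4.55, 3.01 and 1.56 in sets 12_7, 28_6 and deep). bli-2 (2.38), rol-6 (2.32) and dpy-10 (1.75) were also higher. The most abundant collagen gene, col-160, was not (-0.43 ± 0.23, adjusted p = 0.49, and -0.27 without BB21 replicate 2), and col-143 (-1.43) and col-101 (-1.57) were lower. col-143 had 921, 929 and 187 in BB4 and 2224 and 116 in BB21, against 4388, 3499 and 274 in N2.

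Among the molting and hedgehog-related genes, grl-7, a ground-like protein gene of the hedgehog-related family, had 590.3, 356 and 871 in BB4 and 437 and 1489 in BB21, against 6.34, 62.8 and 448 in N2 (3.46 ± 0.70, adjusted p = 0.372). N2 replicate 1 held far less than any other library, and without it the difference was 2.14. grd-2 of the same family was at 3.35, the lipocalin-related lpr-3 at 1.91, the apical matrix gene noah-1 at 1.90 (1.13 without N2 replicate 1) and mlt-10 at 2.32. lin-42, the homolog of period that times the molts, had 5.90, 76.7 and 388 in BB4 and 42.0 and 684 in BB21, against 3.17, 0 and 234 in N2 (2.55 ± 0.55, adjusted p = 0.372). It was close to absent from the N2 libraries of the shallow sets and present in every mutant library. Of the abu and pqn genes, pqn-40 was at 3.46 and pqn-13 at 2.10, while abu-1 had 670.0, 2127 and 1786 in BB4 and 1513 and 1450.2 in BB21, against 57.1, 78.2 and 1889 in N2, with the mutants above N2 in the shallow sets and both deep mutants below the deep N2 library. Its difference of 2.56 became 1.19 without N2 replicate 1 and 4.15 without N2 replicate 3. The members in this and the preceding paragraph other than col-160, lin-42 and pqn-13 were named after their values were seen. Whether the worms of the groups had reached the same point of the molting cycle was not tested.

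**Figure D2:**
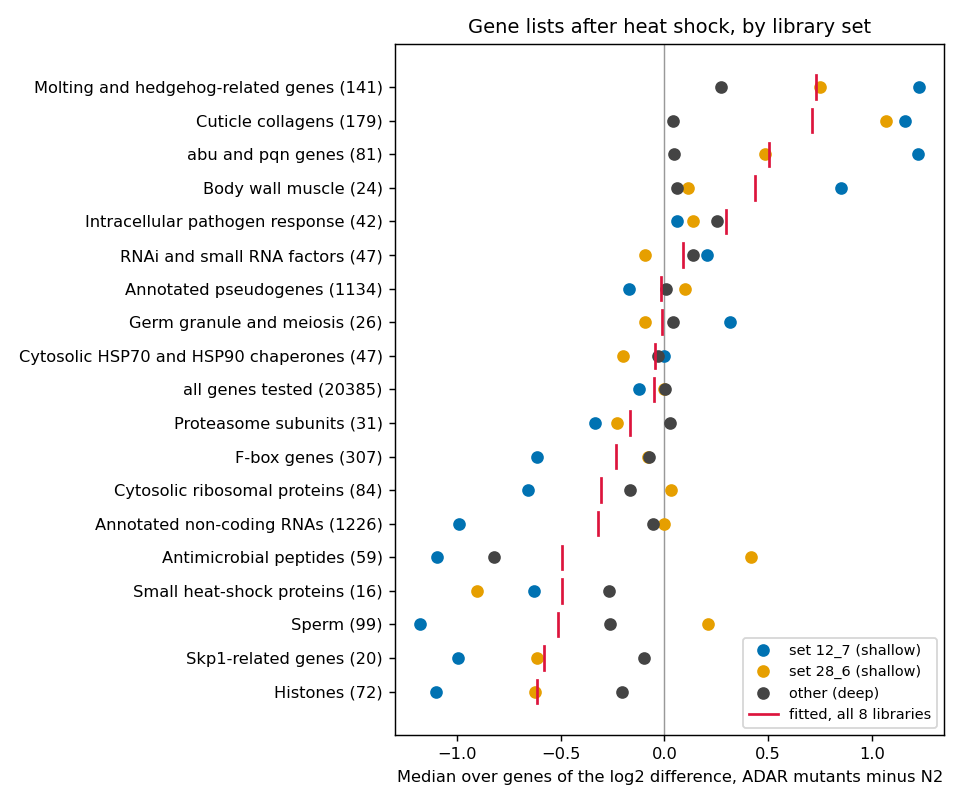
Median log2 difference of ADAR mutants minus N2 after heat shock (x axis) over the genes of each list (y axis, number of genes tested in brackets), with points for each library set and a red bar for the fit over all 8 libraries. Collagens, molting genes and abu and pqn genes lie right of 0 in both shallow sets and nearer to 0 among the deep libraries (0.27 for the molting genes), while histones, Skp1-related genes and small heat-shock genes lie left of 0 in every set.

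These list results depended on the library set. The median difference of the collagens was 1.16 in set 12_7, 1.07 in set 28_6 and 0.04 among the deep libraries. For the molting genes it was 1.23, 0.75 and 0.27, and for the abu and pqn genes 1.22, 0.48 and 0.05 in the same order. Without N2 replicate 1, 44 collagens were higher and 8 lower (median 0.45), 36 molting genes higher and 2 lower (0.60), and 7 abu and pqn genes higher and 1 lower (0.17), while over all genes 646 were higher and 381 lower. Without N2 replicate 3, the deep N2 library, the counts were 92 and 9, 57 and 5, and 36 and 2, and limma then called 157 features at an adjusted p under 0.05, 152 higher and 5 lower, where leaving out any other library gave 0.

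The calls of the shallow sets could be read against libraries that they did not use. With the deep libraries left out limma called 110 features, or 100 genes higher and 3 lower, and the higher ones included 31 of 179 collagens, 13 of 80 abu and pqn genes and 6 of 139 molting genes. Of these 100 genes, 55 had both deep mutants above the deep N2 library, which was the case for 36.7% of all 19714 genes with values, and their median difference among the deep libraries was 0.19. The higher genes of the shallow sets were on the same side in the deep set more often than genes at large, at a far smaller size. Many of these genes are collagens, so they are not independent, and all were read against the same deep N2 library. The share is thus a description. The lower genes were on the same side in 2 of 3 cases, against 33.5% at large.

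**Figure D3:**
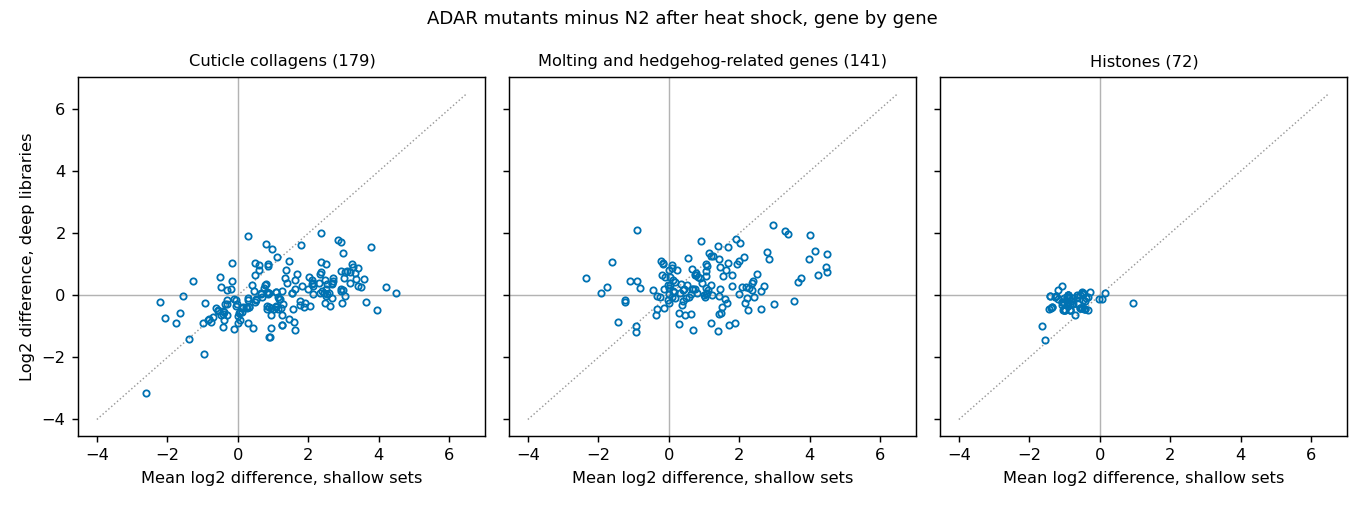
Each point is a gene, with its mean log2 difference of ADAR mutants minus N2 in the 2 shallow library sets (x axis) and among the deep libraries (y axis), and a dotted line where both are equal. Most collagens and molting genes lie right of 0 but below the dotted line, and the collagen at the lower left is col-135.

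Over all 14994 genes with a mean of at least 20 normalized counts, the sets resembled each other weakly. Across genes, which are not independent, the Pearson correlation of the strain difference was 0.22 between sets 12_7 and 28_6 (48.0% of genes with the same sign), 0.25 between set 12_7 and the deep libraries (58.6%) and 0.16 between set 28_6 and the deep libraries (50.1%). Each set has 1 N2 library, so these differences share no library between sets.

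Histone genes were lower as a list. Of 72 histone genes tested, 0 were higher and 28 lower (median -0.61), and 33 had every mutant library below the N2 library of its set, against 10.1% of all genes. his-32 had 57.6, 162 and 17.8 in BB4 and 102 and 28.9 in BB21, against 399.5, 164 and 63.8 in N2, and his-31, named after its values were seen, was at -1.47 ± 0.41 (adjusted p = 0.398) and at -0.96 without N2 replicate 1. The list median was -1.10 in set 12_7, -0.62 in set 28_6 and -0.21 among the deep libraries. Without N2 replicate 1 the number of lower histone genes was 2, with a median of -0.37, and it ranged from 6 to 33 when each of the other libraries was left out. Replication-dependent histone transcripts mostly lack a poly(A) tail, and these libraries were selected for poly(A), so the values concern the polyadenylated or carried-over part.

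Small heat-shock genes, the chaperones most strongly induced by heat, were modestly lower in the mutants. Of 16 tested, 8 were lower and 0 higher (median -0.49), with a set median of -0.63, -0.91 and -0.27 in sets 12_7, 28_6 and deep. Genes that share their values, as hsp-16.48 and hsp-16.49 do, are counted separately in this paragraph, so the 8 are not 8 separate measurements. hsp-16.48, whose values are those of hsp-16.49 as well, had 1199.8, 6544 and 3493 in BB4 and 4819 and 3221 in BB21, against 10717, 3529.5 and 4291 in N2. The N2 library was the highest of each set, but the libraries of one group spread several-fold between sets (-0.89 ± 0.23, adjusted p = 0.387). hsp-16.1 (-0.76 ± 0.22), hsp-16.41 (-0.74 ± 0.22), hsp-16.2 (-0.64 ± 0.23), hsp-12.6 (-0.66 ± 0.26) and hsp-17 (-0.47 ± 0.20), named after their values were seen, were lower at p between 0.00725 and 0.0498. hsp-16.2 lay at -0.42 without N2 replicate 2 or BB4 replicate 1 and at -0.96 without N2 replicate 3. At an adjusted p under 0.05 limma, DESeq2 and edgeR called 0 of the 16, and at an unadjusted p under 0.05 DESeq2 gave 8 lower and edgeR 7. Without the library set as a block limma gave 0 lower. Leaving out 1 library at a time left 5 to 8 lower. At 20 °C none of the 16 passed p under 0.05 in either direction (median -0.17). Of the larger cytosolic chaperones, 1 of 47 HSP70, HSP90, chaperonin and cochaperone genes was higher and 1 lower (median -0.04). The abundant constitutive HSP70 gene hsp-1 was the lower one (-0.50 ± 0.17, adjusted p = 0.453, and -0.28 without N2 replicate 1). Among the 47 genes, 9 (19.1%) had every mutant library below the N2 library of its set and 1 above, against 10.1% and 7.7% of all genes.

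**Figure D4:**
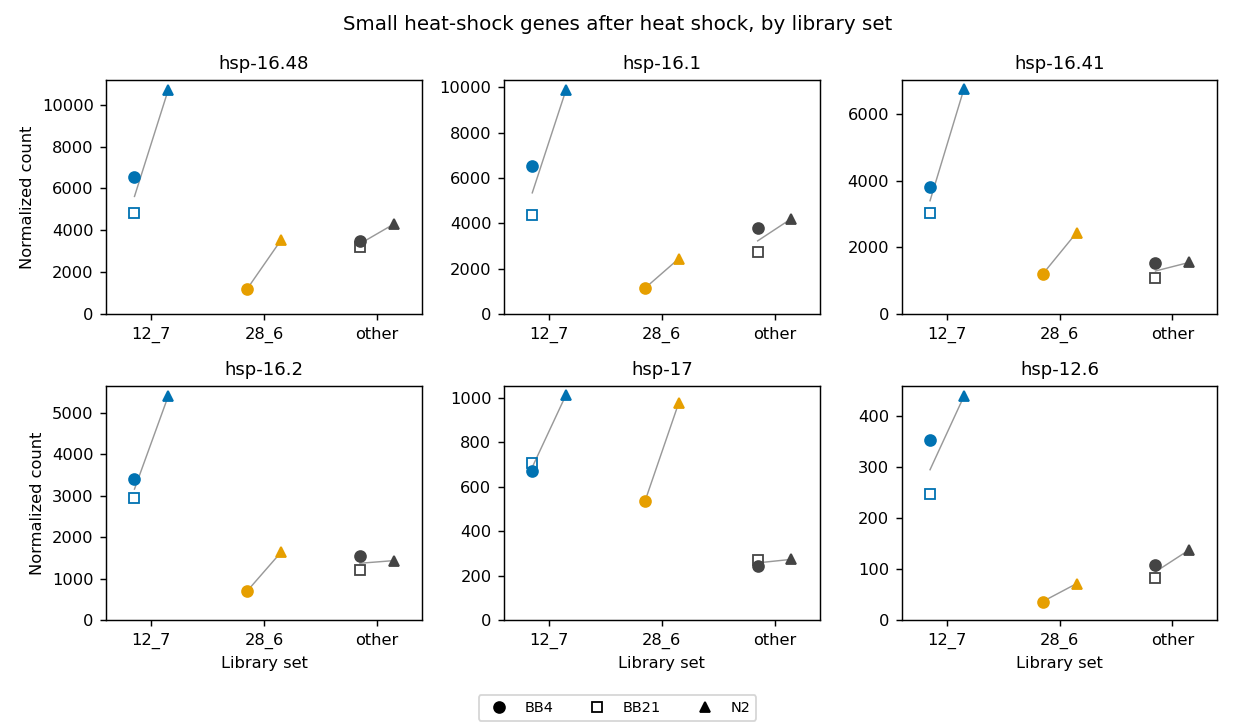
Normalized counts (y axis, from 0) of 6 small heat-shock genes in each heat-shocked library, grouped by library set (x axis), with mutants (circles BB4, open squares BB21) left of N2 (triangles) and a grey line from the geometric mean of the mutants to N2. N2 lies above the mutants of sets 12_7 and 28_6 in all 6 panels, and as a log2 difference the gap is narrower among the deep libraries than in either shallow set, by little for hsp-12.6 (-0.53, and -0.57 in set 12_7).

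Lists tied to defence and to protein turnover were mixed. Of 213 C-type lectin genes 16 were higher and 39 lower, and DESeq2 called 1 higher and 7 lower. Of 59 antimicrobial peptide genes 2 were higher and 11 lower (median -0.49), with a set median of -1.10 in set 12_7, 0.42 in set 28_6 and -0.82 among the deep libraries. Without N2 replicate 1 there were 6 lower, and without N2 replicate 2 or BB4 replicate 1 there were 22. Of 20 Skp1-related genes, subunits of ubiquitin ligases, 4 were lower and 0 higher, and 2 were lower without N2 replicate 1. skr-9, the one with the lowest p, had 0, 0 and 0.424 in BB4 and 0 and 0.839 in BB21, against 3.17, 5.13 and 4.14 in N2, which is 0 or under 1 in every mutant library. F-box genes, which encode substrate receptors of the same ligases, had 6 higher and 27 lower of 307, and 3 and 3 without N2 replicate 1. Of 42 genes of the intracellular pathogen response 8 were higher and 2 lower (median 0.30), close to each other in set medians (0.06, 0.14 and 0.25).

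Of the 8 higher members of the intracellular pathogen response, 5 were neighbours with few reads. C17H1.8 had 4.43, 12.8 and 9.33 in BB4 and 8.12 and 6.71 in BB21, against 0, 0 and 1.24 in N2, and no N2 library reached the lowest mutant library (2.66 ± 0.46, adjusted p = 0.298). C17H1.6 (2.29 ± 0.59), C17H1.7 (1.99 ± 0.51), C17H1.4 (1.48 ± 0.50) and C17H1.5 (1.38 ± 0.48) followed in the same direction at p between 0.00427 and 0.0193, and were named after their values were seen. Not every gene among them was higher. The other 3 higher members stand elsewhere, with W08A12.4 at 1.07 ± 0.37, Y82E9BR.23 at 1.05 ± 0.38 and dct-3 at 1.53 ± 0.58. Without N2 replicate 1 Y82E9BR.23 was at 0.60 and dct-3 at 0.67. These 3 were also named after their values were seen. At 20 °C the neighbours differed in sign. C17H1.8 was at -0.55 ± 0.65, C17H1.4 at -0.55 ± 0.58 and C17H1.5 at -0.35 ± 0.43. C17H1.6 was at 0.50 ± 0.52 and C17H1.7 at 1.49 ± 0.56, so C17H1.7 was higher without heat too. DESeq2 gave C17H1.8 an adjusted p of 0.127.

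RNA interference factors and the classes of transcripts in which edited double-stranded RNA is common gave mixed results. Of 47 RNA interference and small RNA factors 3 were higher and 0 lower. For 7 of them (14.9%) every mutant library was above the N2 library of its set, against 7.7% of all genes, and for 0 below it. Their set median was 0.20 in set 12_7, -0.09 in set 28_6 and 0.14 among the deep libraries. drh-2, annotated as a pseudogene related to the Dicer-related helicases, had 285, 284 and 1183 in BB4 and 491 and 1062 in BB21, against 72.9, 182 and 729 in N2 (1.25 ± 0.37, adjusted p = 0.413, and 0.63 without N2 replicate 1), and the most abundant factor, the Argonaute gene ppw-1, was at 0.32 ± 0.19 (adjusted p = 0.506), and at 0.07 without N2 replicate 1. Of 5 known ADAR substrates, 2 were higher, C35E7.6 (1.16 ± 0.40), named after its values were seen, and the laminin gene lam-2 (0.92 ± 0.33, and 0.31 without N2 replicate 1), and 1 was lower, rncs-1. Of 1134 annotated pseudogenes 51 were higher and 46 lower after heat, which is 4.50% and 4.06%, against 5.73% and 4.68% of all genes. At 20 °C, in the fit of all 16 libraries, 160 pseudogenes were higher and 15 lower (median 0.16). There 1568 of 19777 genes (7.93%) were higher and 914 (4.62%) lower. The 20 °C median of the pseudogenes was 0.18 in set 12_7, 0 in set 28_6 and 0.08 among the deep libraries. Of 1226 annotated non-coding RNAs 28 were higher and 114 lower after heat (median -0.32). Their set median was -0.99 in set 12_7, 0 in set 28_6 and -0.05 among the deep libraries, and without N2 replicate 1 there were 12 higher and 8 lower. In all mutant libraries 185 (15.1%) were below the N2 library of the set and 52 (4.24%) above, against 10.1% and 7.7% of all genes. Strand use in the counting is not given in the sources used here, so reads of a non-coding RNA and of a gene that overlaps it cannot be told apart. The lowest p of this class was that of F12F6.17, with 5.90, 6.39 and 11.5 in BB4 and 5.41 and 10.9 in BB21, against 0, 0 and 1.24 in N2 (2.66 ± 0.39, adjusted p = 0.224).

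Marker lists of other tissues moved with the library set too. The median of 99 sperm genes was -1.18 in set 12_7, 0.21 in set 28_6 and -0.26 among the deep libraries, and 1 was higher and 2 lower in the fit of all sets. Without N2 replicate 2 or without BB4 replicate 1 there were 49 lower sperm genes and without BB4 replicate 3 there were 20. Of 24 body wall muscle genes 5 were higher (median 0.44, and 0.85, 0.11 and 0.06 in sets 12_7, 28_6 and deep), with myo-3 at 0.70 ± 0.23 (0.33 without N2 replicate 1), unc-89 at 0.54 ± 0.16 and 2 higher without N2 replicate 1. Of 84 cytosolic ribosomal protein genes 0 were higher and 0 lower (median -0.30), with -0.66 in set 12_7, 0.03 in set 28_6 and -0.17 among the deep libraries. Their part in the collagen, molting and histone results was not tested.

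Whether a strain difference depended on the heat was asked with all 16 libraries. limma called 0 of 24401 features at an adjusted p under 0.05 (lowest adjusted p 0.404), 1742 at an unadjusted p under 0.05, edgeR called 0 and DESeq2 called 16 features of 15 genes. The libraries of the heat-shocked and the 20 °C worms are separate, and at 20 °C 7.93% of 19777 genes were higher and 4.62% lower at an unadjusted p under 0.05 in the same fit. All 16 DESeq2 features were lower in the mutants after heat relative to 20 °C. Of them 14 had every heat-shocked mutant library below the N2 library of its set, against 10.1% of all genes. The features were called from these same libraries, so that count is a description and no separate support. The number of calls rested on single libraries. Without N2 replicate 1 of the heat-shocked worms DESeq2 called 3 features, 1 higher and 2 lower, and the lower ones were cdr-5 and F53B2.8, and leaving out each of the 16 libraries in turn gave 2 to 93 calls. The genes of these calls were named after their values were seen.

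cdr-5 had the lowest p among them. Its heat-shocked values are given above, and at 20 °C it had 80.0, 73.8 and 62.3 in BB4 and 59.0 and 62.9 in BB21, against 62.1, 80.0 and 57.0 in N2, which is nearly the same level in every library. The heat-shocked minus the 20 °C libraries differed by 1.57, -1.21 and -0.86 on the log2 scale in the mutants of sets 12_7, 28_6 and deep, against 3.99, 1.56 and 1.34 in N2. The difference of the strain effects was -2.43 in limma (adjusted p = 0.404) and -2.38 in DESeq2 (adjusted p = 2.18e-05).

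Other genes of this group had a positive strain difference at 20 °C and a negative one after heat. F53B2.8 had 881, 1771 and 346 in BB4 and 1684 and 278 in BB21, against 3932, 1317 and 482 in N2 after heat and 263, 272 and 176 in BB4 and 330.1 and 259 in BB21, against 149.7, 147 and 128 in N2 at 20 °C. At 20 °C every mutant library was above every N2 library (0.86 ± 0.18), and after heat every mutant library was below the N2 library of its set (-0.82 ± 0.19, adjusted p = 0.372). irg-1, a gene induced by bacterial infection, had 452, 239 and 77.6 in BB4 and 413 and 56.6 in BB21, against 1369.7, 587 and 138 in N2 after heat and 287, 591 and 279.9 in BB4 and 311 and 287 in BB21, against 69.4, 85.3 and 201 in N2 at 20 °C. Its strain difference was -1.25 after heat, while at 20 °C every mutant library was above every N2 library. C10C5.2 (-0.84 and 1.81), F33H12.7 (-1.13 and 2.88), F08G2.5 (-1.52 and 1.54), T24C4.4 (-0.97 and 1.76), C49G7.12 (-1.11 and 1.19), Y58A7A.5 (-0.37 and 0.85) and W06G6.11 (-1.74 and 0.75) had the same signs, negative after heat and positive at 20 °C, in that order. After heat the unadjusted limma p was above 0.05 for F33H12.7 (0.0526), T24C4.4 (0.0886) and Y58A7A.5 (0.0750). At 20 °C it was above 0.05 for W06G6.11 (0.108). Without N2 replicate 1 the difference after heat was -0.76 for irg-1, -0.53 for C10C5.2, -0.71 for F33H12.7, -0.62 for C49G7.12 and -0.84 for W06G6.11, and F33H12.7 was at -1.76 without N2 replicate 3.

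A second pattern in the group was a difference seen mainly after heat. gst-24, a glutathione S-transferase gene, had 432, 1253 and 246 in BB4 and 1228 and 173 in BB21, against 3875, 1047 and 279 in N2 after heat and 95.8 to 220.1 in the 5 mutant libraries, against 80.6 to 184 in N2, at 20 °C. The N2 library was the highest of each heat-shocked set (-1.10 ± 0.26, adjusted p = 0.372), while at 20 °C the groups overlapped (0.26 ± 0.22). W10G11.3 had 167, 59.7 and 21.6 in BB4 and 137 and 15.9 in BB21, against 507, 408 and 54.2 in N2 after heat and 713, 538 and 321 in BB4 and 735 and 216 in BB21, against 617, 698 and 308 in N2 at 20 °C. dod-17, a gene downstream of the insulin pathway factor DAF-16, was at -0.86 after heat and 0.20 at 20 °C, T12B3.2 at -1.25 and -0.21, and F08G2.8 at -1.36 and 0.46.

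**Figure D5:**
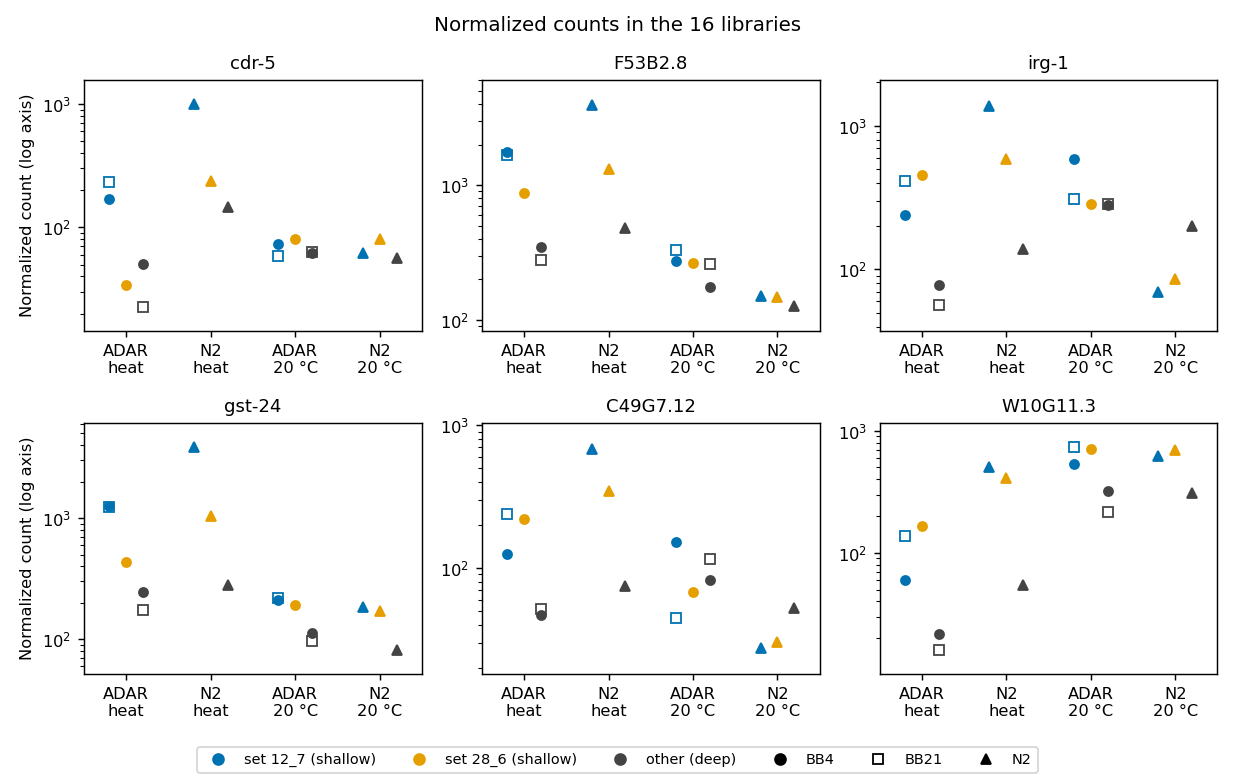
Normalized counts (y axis, log scale) of 6 genes in the 16 libraries, in the order ADAR mutants after heat, N2 after heat, ADAR mutants at 20 °C and N2 at 20 °C (x axis), with a colour per library set and a symbol per strain. Within each colour the heat-shocked mutants lie below heat-shocked N2 in all 6 panels, and for irg-1, F53B2.8 and C49G7.12 the 20 °C mutants lie above 20 °C N2 of their set.

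BB4 and BB21 were then set against each other after heat. Of 24896 features limma called 0 between the strains at an adjusted p under 0.05 and 445 at an unadjusted p under 0.05, edgeR called 0 and DESeq2 called 32, all higher in BB4. Of these 32 features 30 are annotated as non-coding RNAs. Their values across the libraries were nearly parallel (lowest Pearson correlation between 2 of them 0.894), so they count as few independent signals. One of them, F35C12.4, named after its values were seen, had 568, 1528 and 117 in BB4 and 374 and 23.1 in BB21, against 1925, 354 and 91.9 in N2, so the mutants lay on both sides of N2 within the sets. adr-2 differed by 1.07 ± 0.37 as BB4 minus BB21 (adjusted p = 0.997 in limma, and 0.63 without BB21 replicate 2 or 0.67 without BB4 replicate 3), with the fitted difference from N2 at -1.51 in BB4 and -2.58 in BB21. The ranking required both strains to lie on the same side of N2, so the fitted differences of its genes are a description, with col-135 at -2.78 in BB4 and -2.90 in BB21 and mlt-11 at 2.91 and 3.04, values that share the N2 libraries.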

How the data were processed

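Frozen whole worms were ground, RNA was extracted by column kits, and poly(A) libraries were made with the TruSeq RNA kit and sequenced on an Illumina HiSeq instrument. The deposited signal values are the read counts per annotated feature that the authors divided by a DESeq2 size factor (normalized counts). In each library 100% of the values were whole multiples of the value of 1 read, within 0.001 reads, so whole reads were recovered for count models; the depth was 4699505 to 30925561 reads per heat-shocked library. The authors' tables of fold changes and p-values were not used.

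log2(normalized count + 1) was fitted in limma 3.58.1 (R 4.3.3), with a variance trend and the library set as a block, over features with a mean of at least 1; p-values are two-sided, adjusted by Benjamini-Hochberg over all features, with 0.05 as threshold. The replicates are biological by the study's methods, and p-values measure the spread between these samples. In sets 12_7 and 28_6 the pairing comes from the title endings, while the deep libraries, whose endings differ between strains, were joined. The block was used because mutant and N2 libraries of one set deviated together from their group means (correlations of 0.360 to 0.841 after heat and 0.516 to 0.891 at 20 °C). Mutant and N2 libraries of different shallow sets did so as well (0.196 to 0.529 after heat), and deep with shallow libraries did not (-0.781 to -0.506), so the check tells deep from shallow libraries but not sets 12_7 and 28_6 from each other.

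Named were adr-1, adr-2, up to 15 genes per direction and, of each gene list, the most abundant and the lowest-p member where the text uses them. The 15 are features with a mean of at least 20 and every mutant library on one side of its N2 library; as none was called, they were ranked by unadjusted p. The members, lists and comparisons were chosen with earlier results of these data known. Lists were matched by symbol, and classes and gene order come from the RefSeq table of WBcel235, to which 25624 of 26080 features matched. Alternatives were edgeR 4.0.16 and DESeq2 1.42.0 on recovered reads, voom weights, other pseudocounts and filters, quantile normalization, other blocks, single strains, and each library or library set left out. Scripts were tested on simulated data.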

Additional observations from a re-analysis of the deposited data

Results flagged for a closer look

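Among the 5 heat-shocked mutant libraries, BB4 replicate 3 held 533 normalized counts of adr-2, apart from the other 4 at 155 to 251. Its gap to the nearest library was 0.747 of the range of the group, against a critical value of 0.71. This was 1 flag among 91 genes looked at, where chance flags about 1 in 20 groups.

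DESeq2 called a difference of the strain effect between heat shock and 20 °C for 16 features, all with the mutants lower after heat relative to 20 °C, and for 3 features without heat-shocked N2 replicate 1. The differences, in log2 units as heat shock minus 20 °C, were -2.38 for cdr-5, -1.69 for F53B2.8, -2.81 for C10C5.2, -3.77 for F33H12.7, -2.77 for irg-1, -1.83 for F08G2.8, -1.17 for Y58A7A.5 and -1.05 for dod-17. They were -2.69 and -2.75 for the W06G6.11 transcripts b and a, -3.05 for F08G2.5, -2.76 for T24C4.4, -1.72 for W10G11.3, -1.04 for T12B3.2, -1.39 for gst-24 and -2.38 for C49G7.12. limma and edgeR called none of these at an adjusted p under 0.05, with 1742 and 1214 features of 24401 at an unadjusted p under 0.05.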

How the results depend on the processing

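For ADAR mutants against N2 after heat shock, the count of 0 features at an adjusted p under 0.05 became 1 in edgeR, 252 in DESeq2, 1 with voom weights, 32 (23 higher, 9 lower) when all 16 libraries shared the spread, 130 (18 of them lower) for BB21 alone and 110 (107 higher, 3 lower) without the deep libraries. Leaving out 1 library at a time gave 0 to 157 in limma and 0 to 154 in edgeR, each above 0 only without N2 replicate 3. In DESeq2 it gave 61, 127 and 373 without BB4 replicate 1, 2 and 3, 147 and 182 without BB21 replicate 1 and 2, and 68, 57 and 721 without N2 replicate 1, 2 and 3. The cause was not tested. The count stayed at 0 with both other pseudocounts, both other filters, quantile normalization, 1 feature per read profile and BB4 alone. Requiring a log2 fold change over 2 as well could only give 0, since no feature was called before it.

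With no replicate block the count was 0, with 568 features at an unadjusted p under 0.05, and with the bio replicate number as the replicate block it was 0, with 1839; mutant and N2 libraries with the same number had correlations of -0.527 to 0.841 after heat. The difference between heat shock and 20 °C went to 16 calls in DESeq2 and stayed at 0 under its other alternatives, as did BB4 against BB21, which went to 32 calls in DESeq2. Leaving out 1 library at a time, DESeq2 called for the difference between heat shock and 20 °C, with heat-shocked libraries left out, 3, 73 and 93 without N2 replicate 1, 2 and 3, 28 and 6 without BB21 replicate 1 and 2, and 52, 19 and 22 without BB4 replicate 1, 2 and 3, and, with 20 °C libraries left out, 2, 7 and 19 (N2), 18 and 11 (BB21) and 7, 6 and 16 (BB4) in the same order. None of the 91 genes refitted for the mutants against N2 changed its direction under an alternative run. The ranked genes had to lie on one side of N2 in every set, and many others were named after their values were seen. Their direction was thus largely fixed by the choice of genes. The shallow libraries limit genes with few reads, since 1 read in N2 replicate 1 is worth 3.17 normalized counts.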
